A study of Mus musculus with 6 samples.

Results

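Trp53, which encodes the transcription factor p53, and 8 of its direct target genes (Cdkn1a, Mdm2, Ccng1, Bax, Trp53inp1, Perp, Zmat3 and Phlda3) were followed through 6 RNA-Seq libraries of mouse embryonic stem cells (ESCs). The 9 genes were taken by symbol from the expression table, which has 21639 entries, and each symbol matched a single entry. RNA-Seq was performed on the H2A.Z WT, KD and AP3 lines, 3 in all, both as ESCs (Day 0, D0) and as embryoid bodies (EBs) after 3 days without leukemia inhibitory factor (D3). There was 1 library for each of the 6 conditions, so the spread between cultures of a line is unknown and differences within a line or between lines have no replicate check and no p-value. The change from D0 to D3 was also tested over the 3 lines together.

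H2A.Z is a variant of histone H2A that is placed at many promoters. The WT and AP3 lines carried YFP-tagged H2A.Z under a CMV promoter that is switched on through rtTA by doxycycline (1 µg/ml), delivered by lentivirus to KH2 ESCs and enriched by sorting YFP-positive cells. In AP3, acidic patch residues were replaced by those of H2A (G92N, D97N and S98K). Both transgenic lines also carried short hairpins against the 3′ UTR of endogenous H2A.Z, kept by blasticidin selection, and KD denotes depletion of endogenous H2A.Z by hairpin. Libraries with that label are called the labelled KD below, for a reason given with the values of H2afz. The strain is labelled V6.5 (129SvJae and C57BL/6) for all libraries. ESCs were grown on irradiated mouse embryonic fibroblasts and passaged without them before use, and the sources used here do not say how many cultures or clones stand behind each library.

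p53 is a DNA-binding protein that is held at low levels by the ubiquitin ligase Mdm2 and accumulates after DNA damage and other stress. It binds response elements made of adjoining half-sites and activates genes that halt the cell cycle, trigger apoptosis or repair DNA, and Mdm2 itself is among its targets, which closes a negative feedback loop. ESCs have abundant p53 compared with many differentiated cells, and p53 activity is controlled largely after translation.

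The DNA around the starts of the 9 genes was searched for p53 response elements, because these are the sequences through which p53 acts on its targets. A match was a pair of adjoining p53 half-sites of 10 bases each, both 4-base cores intact and at most 2 mismatches elsewhere, on either strand within 3000 bases of the start of the gene in GENCODE (mm9). The motif reads the same on both strands, and the matches are written 5′ to 3′ on the strand of the gene with the cores in capitals.
Cdkn1a: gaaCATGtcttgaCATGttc
Ccng1: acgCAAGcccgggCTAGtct
Zmat3: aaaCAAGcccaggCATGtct
Perp, before the gene: attCTAGcccaggCTTGccc
Perp, intron: gggCAAGctctggCATGtca

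The Cdkn1a element, at chr17:29227873-29227892 on the plus strand, is centred 42 bases before the first annotated start and has 1 mismatch. Other starts of coding transcripts of Cdkn1a lie farther downstream, 2834 and 7270 bases from the centre of the element. The Ccng1 element, at chr11:40568438-40568457 on the minus strand, is in an intron and centred 366 bases after the start and also has 1 mismatch. The Zmat3 element, at chr3:32263253-32263272 on the minus strand, is in an intron, 1280 and 1338 bases after the 2 annotated coding starts, and it is the only one of the 5 that matches the consensus with 0 mismatches. The deposited locus of Zmat3 reaches farther upstream than the GENCODE gene, and the element lies more than 3000 bases from its end. The pair near Perp have 2 mismatches each, and lie 2028 bases before the start (chr10:18562840-18562859, plus strand) and in an intron 2956 bases after it (chr10:18567823-18567842, plus strand). Of 19508 such windows over coding genes, 20 (0.103%) held a match with 0 mismatches, 145 (0.743%) one with at most 1 and 702 (3.6%) one with at most 2, while 1, 3 and 4 of the 9 genes did. These letters were not found in the windows of Trp53, Mdm2, Bax, Trp53inp1 and Phlda3. The 9 genes were chosen as p53 and its direct targets, so a share of matches above that of all windows follows from the choice and tests nothing. A match describes the sequence only, and p53 binding was not measured.

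H2afz, the gene of H2A.Z, stood at 279 RPKM in WT ESCs, 343 in ESCs of the library labelled KD and 304 in AP3 ESCs, and in EBs at 258, 236 and 394 RPKM in the same order. RPKM are reads scaled to transcript length and library size. H2afz was thus not lower in the library labelled KD than in WT in ESCs, and in EBs it was lowest in the labelled KD. These values neither show nor contradict the depletion that the label names. In WT and AP3, reads of the transgenes' coding sequence map to the same exons, so their values cannot show how far endogenous H2A.Z was depleted, and the labels do not say whether the KD line carried a transgene. Estimated depths were 17.6 to 29.3 M reads, with AP3 at D0 the deepest. Pou5f1, a pluripotency marker, was at 358 to 540 RPKM in all 6 libraries, also in EBs, whereas Klf4, another, went from 121, 131 and 65.9 RPKM at D0 (WT, the library labelled KD, AP3) to 17.4, 17.1 and 14.9 at D3, and Otx2 and Fgf5, markers of the epiblast, were higher at D3 in every line. The 10 fibroblast markers summed to 35.3, 30.8 and 64.0 RPKM in ESCs and, in EBs, to 21.1, 21.1 and 18.1. Their collagens (Col1a1, Col1a2 and Col3a1) summed to 24.0, 20.3 and 40.4 RPKM in ESCs and, in EBs, to 3.12, 1.64 and 5.35, and between 0 and 3 of the 10 markers were listed at 0 in a library, among them Postn and Lum. No entry carried the symbol Nanog, so Nanog was not analysed here.

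All 9 genes were expressed in all libraries, at no less than 1 RPKM. Trp53 was the most abundant, with a mean of 160 RPKM over the 6 libraries, and Perp the least, with 10.6 RPKM. Between them stood Bax at 118, Ccng1 at 66.9, Mdm2 at 58.9, Trp53inp1 at 58.2, Phlda3 at 33.4, Cdkn1a at 32.4 and Zmat3 at 19.8 RPKM. Neighbours in this order overlapped in their ranges across libraries, except Bax and Ccng1, whose lowest and highest libraries were at 98.3 and 89.9 RPKM. The highest library exceeded the lowest 7.26-fold for Perp, 3.28-fold for Cdkn1a, 2.26-fold for Mdm2 and 2.05-fold for Phlda3, against 1.37-fold for Zmat3 and 1.42-fold for Trp53. The plot of levels by day shows no overlap between days for Perp, Cdkn1a, Mdm2 and Phlda3, whose EB levels all lay under their ESC levels.

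**Figure D1:**
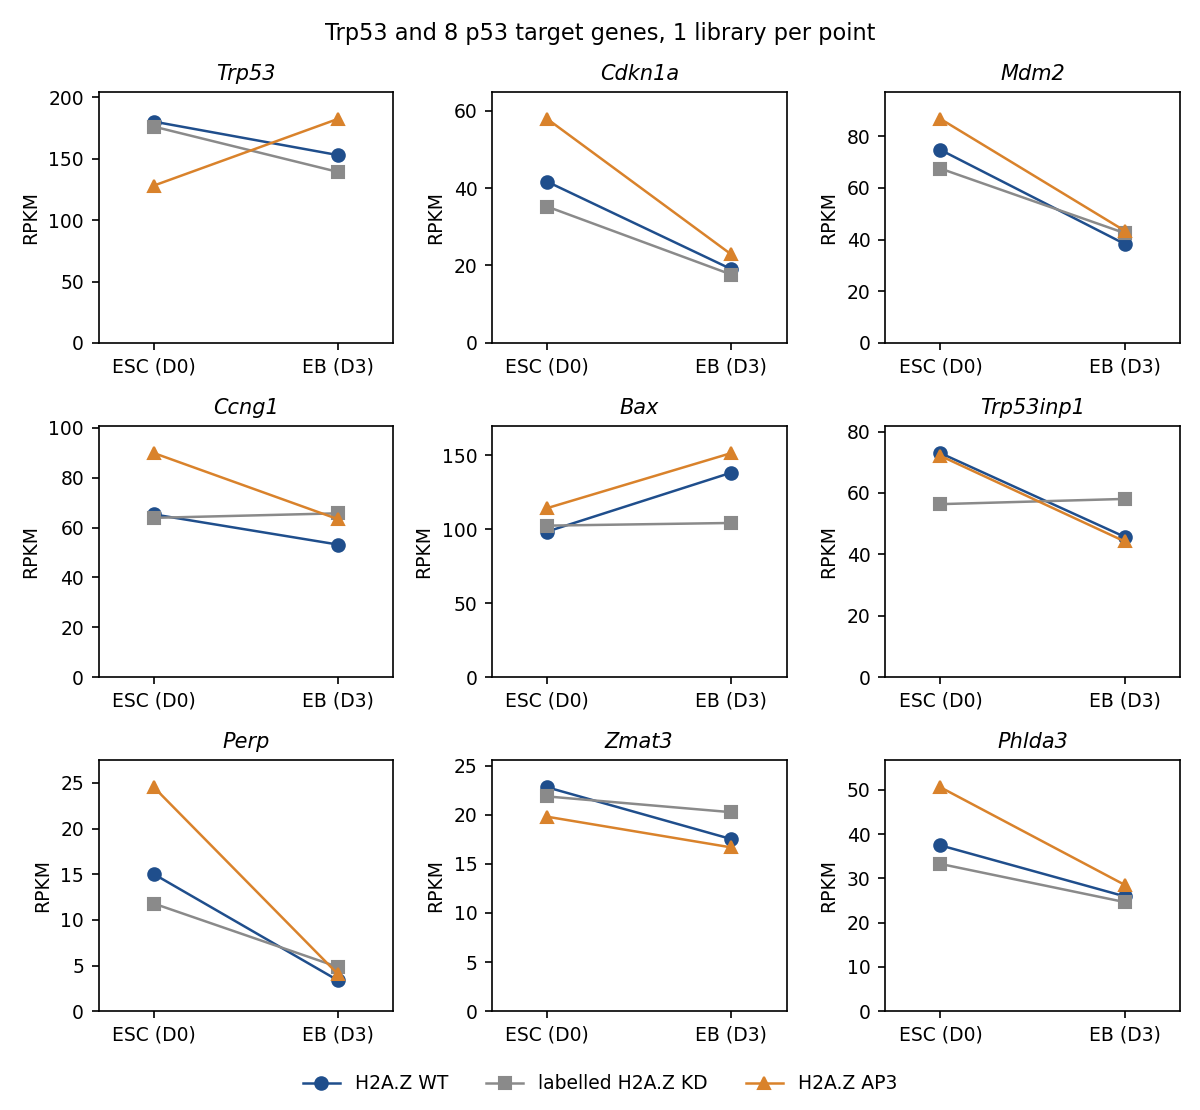
RPKM (vertical axes, each starting at 0) of Trp53 and 8 target genes at D0 and D3 (horizontal axes), 1 panel per gene, with 1 point per library and a line joining the 2 days of each ESC line. Cdkn1a, Mdm2, Perp and Phlda3 lie lower at D3 than at D0 in all 3 lines without overlap, Trp53 is at 128 RPKM in ESCs and 183 in EBs of AP3, and Bax is at 98.3 to 114 RPKM in ESCs and 104 to 151 in EBs.

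Whether the p53 program differed between ESCs and EBs was asked in each line by the ratio of D3 to D0. Cdkn1a, Mdm2 and Perp fell past 1.5-fold in all 3 lines, Trp53inp1 fell in WT and AP3, Phlda3 fell in AP3, and no gene of the 9 was higher past this threshold. Thus 4 of 9 genes in WT, 3 in the library labelled KD and 5 in AP3 passed 1.5-fold. Among expressed genes, those that reached 1 RPKM in either library of a pair, the share lower past 1.5-fold was 10.6% in WT, 9.86% in the labelled KD and 13.1% in AP3 (either direction: 23.0%, 22.3% and 24.3%, and 30.7%, 30.2% and 31.0% over all entries). The fall past 1.5-fold in all 3 lines, seen in 3 of the 9, was seen in 4.81% of 12702 genes. With limma over the 6 libraries, the line as a block and Benjamini-Hochberg adjustment across 12702 genes reaching 1 RPKM in any library, 4 of the 9 were lower at adjusted p under 0.05, where 5.11% of genes were lower (9.93% in either direction). Perp changed by -1.78 ± 0.22 (SE, log2 of RPKM + 1, adjusted p = 0.00451), Cdkn1a by -1.12 ± 0.12 (adjusted p = 0.00304), Mdm2 by -0.86 ± 0.12 (adjusted p = 0.00766) and Phlda3 by -0.58 ± 0.13 (adjusted p = 0.0317), each lower in 3 of 3 lines. Trp53inp1 was at -0.44 ± 0.17 (limma, adjusted p = 0.143, lower in 2 of 3 lines), and the adjusted p of the other 4 was 0.195 to 0.952. Without WT only Cdkn1a and Perp passed (2.02% of genes were called lower), and with no filter on low values 0 of the 9 did, where 5 were at an unadjusted limma p under 0.05. This fit was added after seeing the data, it has 2 residual degrees of freedom, and its error is the difference in day change between lines of unlike genotype, not between replicate cultures.

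The median log2 change of the 9 was -0.53, -0.34 and -0.70 in WT, the labelled KD and AP3, where that of all expressed genes was 0.04 in each line.

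Trp53 itself did not pass the threshold in any line. Its level was 180 RPKM in WT, 176 in the library labelled KD and 128 in AP3 ESCs, and in EBs 153, 139 and 183 RPKM. The days overlapped, and the log2 change was -0.24 in WT, -0.34 in the labelled KD and 0.51 in AP3. The threshold of 1.5-fold is 0.58 on the log2 scale. Trp53 lies on chromosome 11 (69393861 to 69405375, plus strand, mm9), and a pseudogene copy of 141 bases, Trp53-ps, is annotated on chromosome 17, so that a small part of its reads could be shared.

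Mdm2, the ubiquitin ligase that marks p53 for degradation, was at 74.8 RPKM in WT, 67.5 in the library labelled KD and 86.8 in AP3 ESCs, and in EBs at 38.4, 42.6 and 43.5 RPKM. No EB library reached the lowest ESC library. It fell by 0.96, 0.67 and 1.00 on the log2 scale in WT, the labelled KD and AP3, or 1.95-, 1.59- and 2.00-fold. Mdm2 lies on chromosome 10 (117125961 to 117147772, minus strand).

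Of the genes of cell cycle arrest, Cdkn1a fell and Ccng1 did not pass the threshold. Cdkn1a encodes p21, the inhibitor of cyclin-dependent kinases through which p53 arrests the cycle. Its level was 41.7 RPKM in WT, 35.2 in the library labelled KD and 57.9 in AP3 ESCs, and in EBs 19.1, 17.7 and 22.9 RPKM. The lowest ESC library stood above the highest EB library, and the log2 change was -1.13 in WT (95% exact counting interval -1.32 to -0.93), -0.996 in the labelled KD (-1.19 to -0.81) and -1.34 in AP3 (-1.51 to -1.18). These intervals cover counting error only, and reads amplified by PCR are not independent molecules. Ccng1, which encodes cyclin G1, a regulator in the p53 and Mdm2 loop, was at 65.3, 63.9 and 89.9 RPKM in ESCs in the same order and, in EBs, 53.2, 65.7 and 63.4. Its days overlapped, with log2 changes of -0.30, 0.04 (-0.01 when centred on the median ratio) and -0.50. Cdkn1a lies on chromosome 17 (29227931 to 29237667, plus strand) and Ccng1 on chromosome 11 (40562054 to 40568788, minus strand).

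The apoptosis genes differed among themselves, with Perp falling in all lines and Bax passing the threshold in none. Perp, a tetraspan membrane protein of desmosomes that takes part in p53-dependent apoptosis, had the largest change of the 9 genes. It stood at 15.01 RPKM in WT, 11.8 in the library labelled KD and 24.5 in AP3 ESCs, and in EBs at 3.38, 4.84 and 4.06 RPKM. Every ESC library was above every EB library. The log2 change was -2.15 in WT (counting interval -2.45 to -1.87), -1.28 in the labelled KD (-1.52 to -1.05) and -2.59 in AP3 (-2.84 to -2.35), or 4.45-, 2.43- and 6.04-fold. Only 1.57%, 3.63% and 1.37% of expressed genes had a lower change in the respective line.

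Phlda3, a pleckstrin-homology protein that restrains Akt signalling, was at 37.5, 33.3 and 50.6 RPKM in ESCs (WT, the library labelled KD, AP3) and, in EBs, at 26.0, 24.7 and 28.6. The days did not overlap, and the log2 change of -0.82 in AP3 passed the threshold whereas -0.53 in WT and -0.43 in the labelled KD did not. Trp53inp1, a nuclear protein that promotes p53-dependent cell death, was at 73.0, 56.3 and 72.1 RPKM in ESCs and, in EBs, 45.7, 58.0 and 44.2. In the library labelled KD the log2 change was 0.04 (-0.01 when centred on the median ratio), while WT and AP3 fell by 0.67 and 0.70, so that the days overlapped. Bax, the pore-forming protein of the outer mitochondrial membrane, was at 98.3, 102 and 114 RPKM in ESCs and, in EBs, 138, 104 and 151. The log2 change of Bax was 0.49 in WT, 0.03 in the labelled KD and 0.41 in AP3, all short of 1.5-fold. In the labelled KD the counting interval was -0.06 to 0.11, and the value was -0.02 when centred on the median ratio, so no direction is given for that line.

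Zmat3, a zinc finger protein that binds RNA and acts on splicing and stability of mRNA, varied least. Its levels were 22.8, 21.9 and 19.8 RPKM in ESCs and, in EBs, 17.5, 20.3 and 16.7 RPKM. The days overlapped by a narrow margin and the log2 changes were -0.38, -0.11 and -0.25. Perp lies on chromosome 10 (18564877 to 18576878, plus strand), Phlda3 on chromosome 1 (137662662 to 137665710, plus), Trp53inp1 on chromosome 4 (11083588 to 11101524, plus), Bax on chromosome 7 (52717065 to 52722268, minus) and Zmat3 on chromosome 3 (32233716 to 32266358, minus), and no other annotated gene overlaps any of the 9.

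**Figure D2:**
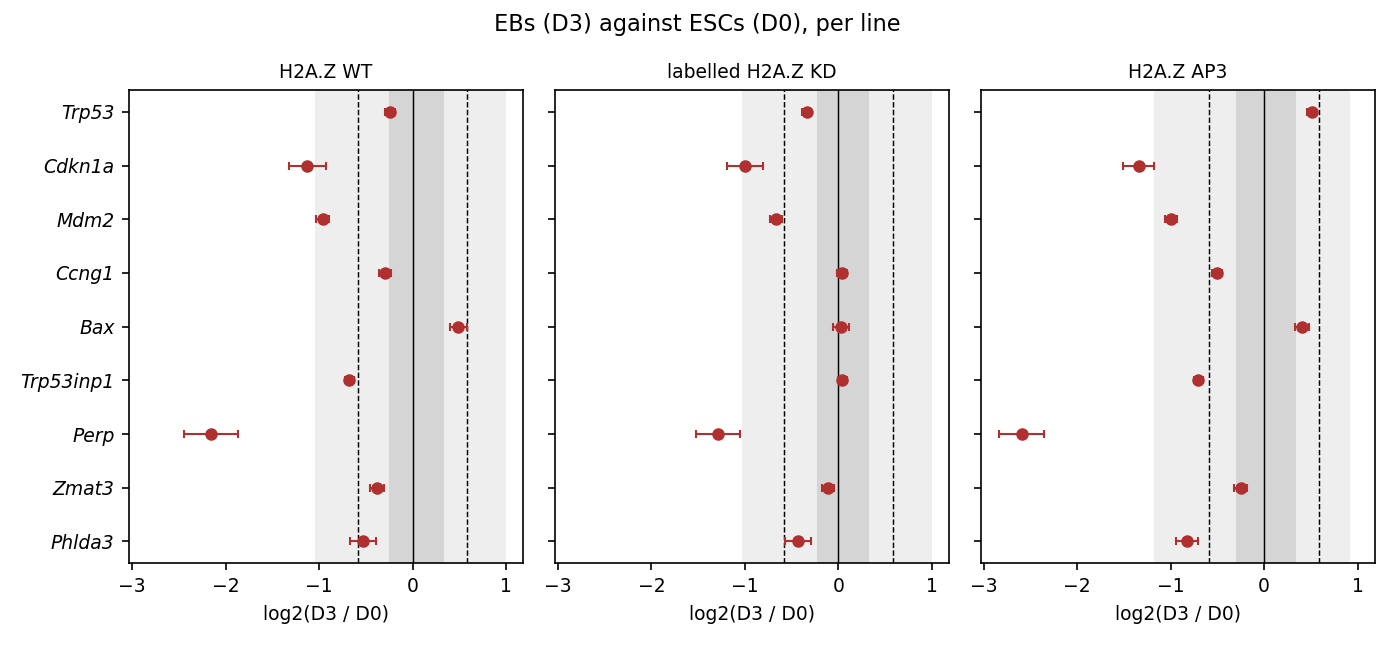
Log2 ratio of RPKM at D3 to D0 (horizontal axes) for the 9 genes (rows) in each line, with 95% counting intervals as bars, dashed lines at 1.5-fold, dark shading for the quartile range and light shading for the 5th to 95th percentile of expressed genes. Perp lies left of the light shading in all 3 lines (-2.15, -1.28 and -2.59), and Cdkn1a in WT and AP3.

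The 4 genes with all EB levels under all ESC levels, Cdkn1a, Mdm2, Perp and Phlda3, compare with 14.4% of 12702 genes, and none of the 9 had all EB levels above all ESC levels. Without the library pair labelled KD, 7 of the 9 genes had both EB levels under both ESC levels, with Ccng1, Trp53inp1 and Zmat3 added, and without AP3 there were 6, with Trp53 and Zmat3 added, and without WT the same 4. With 4 libraries such a pattern is more common, and 24.4%, 25.5% and 20.1% of genes showed it in the same order. A fall past 1.5-fold in both remaining lines was seen in 4 members without the labelled KD and in 3 without AP3 or without WT, against 6.65%, 6.45% and 6.26% of genes. Most fibroblast markers moved in the same direction as these genes, since 6, 8 and 8 of the 10 were lower at D3 in WT, the labelled KD and AP3, and their sum was 1.67-, 1.46- and 3.53-fold lower. Thy1 went the other way, from 1.74, 2.42 and 1.74 RPKM at D0 to 9.19, 5.48 and 3.56 at D3. Pdgfra rose from 4.71 to 6.21 RPKM in WT and from 4.78 to 12.5 in the labelled KD, and fell from 10.2 to 6.85 in AP3. The part of the fibroblast markers in the result was not tested. In bulk samples, fewer cells of a type and less RNA per cell cannot be told apart.

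Between AP3 and WT at D0, 1 of the 9 genes passed 1.5-fold. This was Perp, higher in AP3 at 24.5 against 15.01 RPKM, a log2 difference of 0.71 (counting interval 0.56 to 0.86) that is 1.63-fold. In this comparison 13.9% of expressed genes passed 1.5-fold (25.0% of all entries) and 7.79% were higher, and 1 of 9 is near these shares. Cdkn1a, Ccng1 and Phlda3 were at log2 differences of 0.47, 0.46 and 0.43, Mdm2 and Bax at 0.21 and 0.22, Trp53inp1 at -0.02 and Zmat3 at -0.20. Thus 6 of the 8 targets were above 0, 5 of them short of 1.5-fold, and Trp53 was at -0.49, also short of it. The median of the 9 genes was 0.22, against 0.0046 for expressed genes.

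In AP3 against the library labelled KD at D0, 3 of the 9 genes passed 1.5-fold. Perp (2.08-fold), Cdkn1a (1.64-fold) and Phlda3 (1.52-fold) were higher past the threshold, with log2 differences of 1.06, 0.72 and 0.60. Mdm2, Ccng1, Bax and Trp53inp1 lay between 0.16 and 0.49, and Trp53 at -0.46 and Zmat3 at -0.14 were on the other side of 0. The counting interval of Phlda3 was 0.49 to 0.72 and that of Cdkn1a 0.58 to 0.86, and both reach under 1.5-fold, as does that of Perp against WT. Centred on the median ratio of genes with at least 1 RPKM in both libraries, Phlda3 was at 0.57 and did not pass. The 3 of 9 genes, uncentred, compare with 11.7% of expressed genes that were higher (18.4% in either direction, 27.0% of all entries). Both comparisons share the AP3 library at D0, as does the D3 to D0 ratio of AP3, and in this library fibroblast markers were summed 1.81-fold above WT and 2.08-fold above the library labelled KD, with 8 of 10 higher in each. The same library had less Klf4 and Sox2, a further pluripotency factor (110 against 191 RPKM in WT), whereas Pou5f1 was at 540 against 421 RPKM, Zfp42 at 195 against 203 and Esrrb at 88.7 against 92.2. Of the early differentiation markers, Gata6 was at 9.84 against 2.96 RPKM in WT and Sox17 at 2.70 against 0.974, both higher past 1.5-fold, and Otx2 was lower at 1.37 against 4.22 RPKM. Their part in the result, and that of the depth of this library, was not tested.

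In EBs none of the 9 genes passed 1.5-fold between any pair of lines. The log2 differences of AP3 from WT at D3 were 0.25 for Trp53, 0.26 for Cdkn1a, 0.18 for Mdm2, 0.25 for Ccng1, 0.13 for Bax, 0.27 for Perp and 0.14 for Phlda3, with Trp53inp1 at -0.05 and Zmat3 at -0.07. Thus 6 of the 8 targets were above 0, and so was Trp53. The counting intervals of Perp (-0.07 to 0.63) and Phlda3 (-0.007 to 0.28) included 0. The median of the 9 genes was 0.18, against -0.008 for expressed genes. Among expressed genes 10.2% passed 1.5-fold in this comparison (22.1% of all entries). Against the library labelled KD, AP3 at D3 had log2 differences from -0.39 for Trp53inp1 to 0.54 for Bax, with a median of 0.03, and 11.3% of expressed genes passed (22.7% of all entries).

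**Figure D3:**
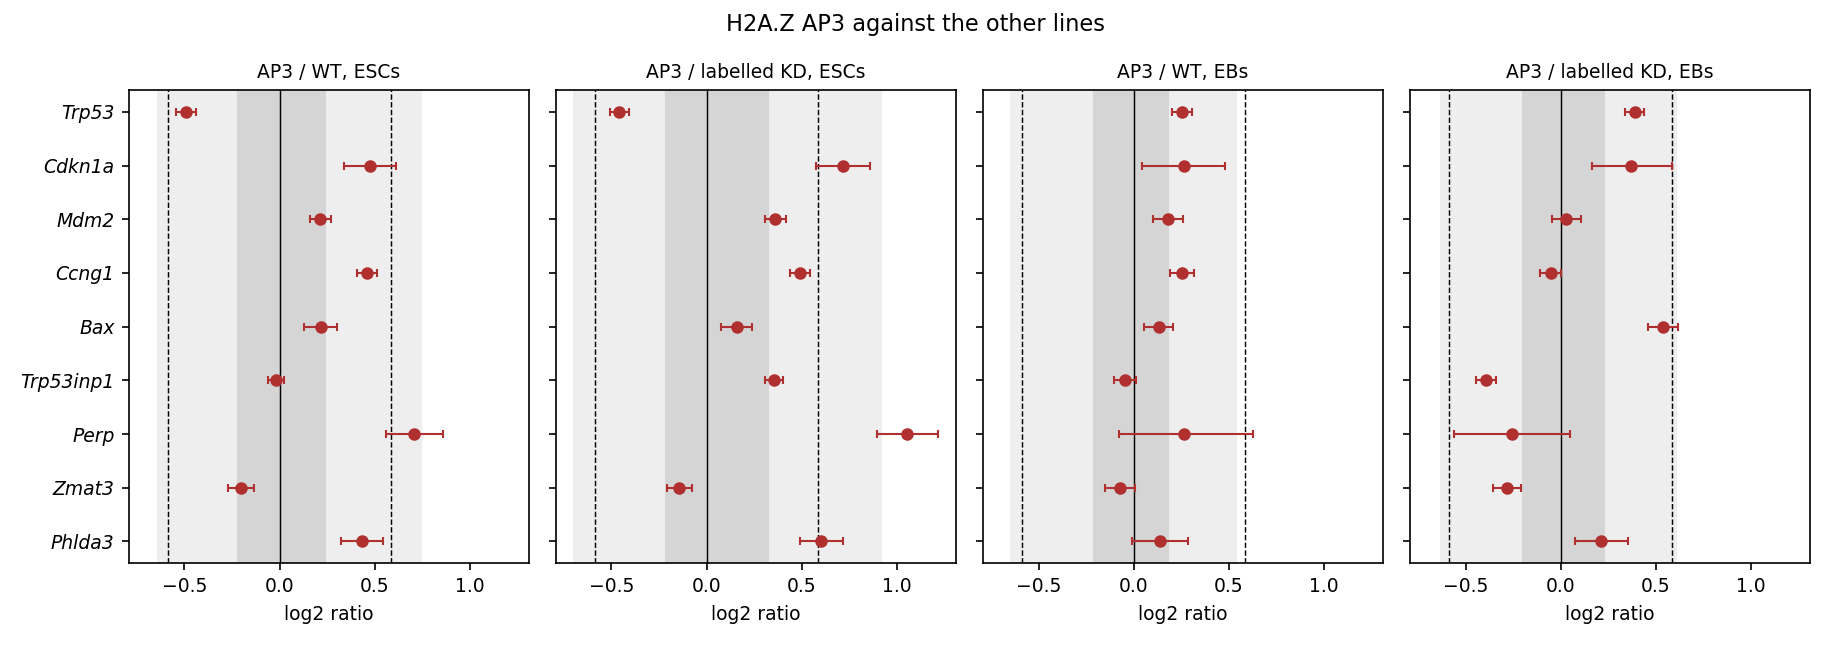
Log2 ratio of RPKM (horizontal axes) for the 9 genes (rows) between AP3 and the other lines in ESCs and EBs, with 95% counting intervals as bars, dashed lines at 1.5-fold, and shading for the quartile range (dark) and the 5th to 95th percentile (light) of expressed genes. Perp is past the dashed line in both ESC panels (0.71 and 1.06), and no gene is past it in the EB panels.

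Between the library labelled KD and WT none of the 9 genes passed 1.5-fold on either day. At D0 the log2 differences lay between -0.37 for Trp53inp1 and 0.06 for Bax, 8 of the 9 were below 0 (7 when centred on the median ratio, Ccng1 then being at 0.00) and the median was -0.15, against -0.03 for expressed genes, whereas 8.02% of expressed genes passed 1.5-fold (19.7% of all entries). Perp was at -0.35 and Cdkn1a at -0.24. At D3 the differences lay between -0.41 for Bax and 0.52 for Perp, with a median of 0.15, whereas 8.59% of expressed genes passed (20.7% of all entries). The order of lines for Cdkn1a was the same on both days, with AP3 highest and the library labelled KD lowest, but at D3 the labelled KD and WT did not differ beyond counting error (-0.11, counting interval -0.33 to 0.11), and the spread among lines was 1.64-fold at D0 and 1.29-fold at D3.

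Among 33 further p53 targets, more were lower than higher at D3. Of those that reached 1 RPKM on either day, 10 of 32 fell past 1.5-fold and 0 were higher in WT, 9 of 32 fell and 3 were higher in the labelled KD, and 12 of 33 fell and 0 were higher in AP3. Over all 33 there were 11, 10 and 12 that fell, with median log2 changes of -0.24, -0.11 and -0.43. Among expressed genes the share lower was 10.6%, 9.86% and 13.1% in the same order, and 12.4% were higher in the labelled KD. The largest change in WT among those with at least 1 RPKM was that of Plk2, a polo-like kinase of the arrest group, at 39.9 RPKM in WT, 26.6 in the library labelled KD and 42.4 in AP3 at D0 and 6.47, 9.18 and 9.32 at D3. Btg2, an antiproliferative gene, fell from 31.6, 26.3 and 34.0 RPKM to 11.7, 13.7 and 12.6, and Eda2r, a receptor of the tumour necrosis factor family, from 22.1, 16.1 and 23.2 to 9.65, 9.07 and 8.16. The arrest and growth genes accounted for 7 of the 10 in WT, the apoptosis genes for 2 and the repair and metabolism genes for 1. In the same order of groups the numbers were 5, 3 and 1 in the labelled KD and 3, 5 and 4 in AP3, so the split differed between lines.

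Between the lines at D0, 26 of the 33 further targets were above 0 in AP3 against WT. Their median was 0.20, against 0.0046 for expressed genes, and 3 passed 1.5-fold higher, a share near the 7.79% of expressed genes. These were Gdf15, a stress cytokine, at 8.30 against 4.15 RPKM, Ddit4, an inhibitor of mTOR signalling, at 113 against 66.0 RPKM, and Fas, a death receptor, at 1.448 against 0.370 RPKM. Against the library labelled KD, 9 passed higher and 0 lower, where 11.7% of expressed genes were higher, with a median of 0.37. In the library labelled KD against WT, 0 were higher and 4 lower, where 4.65% of expressed genes were lower, among them Gdf15 (2.31 against 4.15 RPKM) and Plk2 (26.6 against 39.9 RPKM). At D3 the AP3 library had 3 higher than in WT and 0 lower, where 4.20% of expressed genes were higher, of which Rps27l, a ribosomal protein-like p53 target, was at 360 against 228 RPKM, and the median of the 33 was 0.03.

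**Figure D4:**
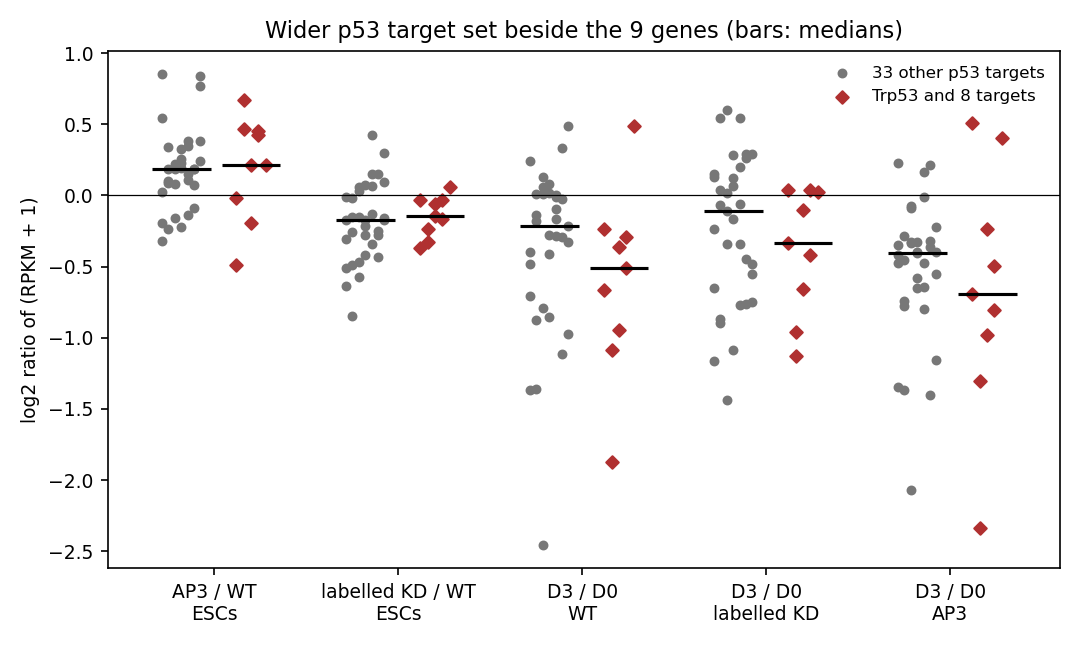
Log2 ratio of RPKM + 1 (vertical axis) in 5 comparisons (horizontal axis) for 33 further p53 targets (grey points) and the 9 genes (red diamonds), with bars at the medians. Points of both sets lie mainly above 0 for AP3 against WT in ESCs, where 26 of 33 and 6 of 9 are above 0, and mainly below 0 for D3 against D0 in AP3, where 30 of 33 and 7 of 9 are below 0.

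In AP3 against WT at D0, 2 of 6 p53 inhibitors beside Mdm2 and 0 of 10 activators and damage kinases passed 1.5-fold, where 13.9% of expressed genes did. Mdm4, the partner of Mdm2 in restraining p53, was at 53.5, 40.3 and 53.1 RPKM in ESCs and, in EBs, 32.5, 39.0 and 23.2, which is past 1.5-fold lower in WT and AP3 and not in the library labelled KD, the pattern also seen for Trp53inp1. The 2 inhibitors were the ubiquitin ligase gene Rchy1, higher in AP3 (18.8 against 11.5 RPKM), and Sirt1, a deacetylase that acts on p53, lower (22.9 against 35.1 RPKM). Against the library labelled KD, AP3 had more Cdkn2a, the locus of the Mdm2 inhibitor Arf, on both days (15.3 against 9.78 RPKM in ESCs, 14.7 against 9.22 in EBs), less Sirt1 in ESCs (22.9 against 38.5) and less Mdm4 and Atr in EBs (23.2 against 39.0 and 7.98 against 12.2), all past 1.5-fold. Thus 1 of 6 inhibitors and 1 of 10 activators passed in ESCs, where 18.4% of expressed genes did, and 1 of 6 and 2 of 10 in EBs, where 11.3% did. Between D3 and D0, Mdm4 was the only inhibitor to pass, none of the 10 activators and damage kinases passed in WT and AP3, and 1, Atr, did in the labelled KD, where 23.0%, 24.3% and 22.3% of expressed genes passed in WT, AP3 and the labelled KD. Of 10 cell cycle genes that p53 and p21 lower, none passed between AP3 and WT at D0, and at D3 Cdc20 and Cdc25c fell in WT (2 of 10, where 10.6% of expressed genes fell) and 0 of 10 passed in the labelled KD and in AP3. Of the relatives of p53, Trp63 was at or under 0.439 RPKM and Trp73 at 1.04 to 2.15 RPKM.

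The profile of Cdkn1a over the 6 libraries was compared with that of 8216 genes averaging 5 RPKM or more, by the root mean square difference of centred log2 of RPKM + 1. The 5 most like genes were Rnd3 (0.061), Gprc5a (0.084), 8430410A17Rik (0.125), Snhg1 (0.128) and Bcam (0.136). Rnd3, a small GTPase, was at 18.6, 15.4 and 23.9 RPKM in ESCs and, in EBs, 7.82, 7.49 and 10.6, with AP3 highest on both days as for Cdkn1a. Among the members of the p53 set Mdm2 ranked 25, Phlda3 94, Perp 299, Trp53inp1 475, Ccng1 695, Zmat3 1621, Trp53 4455 and Bax 6407. The gene of p53 and Bax thus stood farthest from Cdkn1a, and Mdm2 nearest. The measure describes 6 libraries that share 2 days and 3 lines, and it carries no test.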

How the data were processed

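The authors selected poly(A) RNA, sequenced TruSeq libraries as single-end reads, aligned them to mm9 with TopHat and Bowtie 0.12.7 (2 mismatches and 20 locations allowed) and computed RPKM per gene with Cufflinks 1.3.0, per the submitters' processing notes and methods. The RPKM values were used as the authors deposited them. The 6 log2 columns deposited by the authors hold their own comparisons and were not used.

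Log2 ratios were computed from RPKM with a pseudocount of 0.001, and a gene was called past 1.5-fold in either direction over all 21639 entries. Depth was estimated from the steps of low RPKM values in 3696 genes with 1 transcript over 1.5 kb. Whole reads could not be recovered, so no count test was run. The change from D0 to D3 was fitted with limma 3.58.1 (R 4.3.3) on log2(RPKM + 1) of genes with at least 1 RPKM in 1 library, with the line as a block, a trended variance and Benjamini-Hochberg adjustment. The same line gave both days, which is where the pairing comes from. Expected reads per member (126 to 11411) came from this depth and the median length of coding transcripts, and gave 95% exact (Clopper-Pearson) intervals. Gene positions are those of the deposited table, with starts raised by 1, and transcripts, starts and overlaps are from GENCODE on NCBIM37 (mm9). Distances of elements were measured from their centre.

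The members and gene lists were chosen with earlier results of these data known. Named genes were the 9 members, H2afz, markers needed to check the labels, up to 4 genes per list and comparison that passed 1.5-fold with at least 1 RPKM in 1 library, ranked by log2 change with pseudocount 1, and the 5 genes most like Cdkn1a. Alternatives were pseudocounts of 0.1 and 1, a filter at 1 RPKM, centring on the median ratio, summing entries of a symbol, and a 2-fold threshold. The scripts were tested on simulated data. For the 1.5-fold calls, 200 genes were changed 2-fold without noise, so the recovery of all 200 was fixed in advance. For the limma fit, 200 entries were given larger changes with noise added. All 200 were recovered, and 16 unchanged entries were also called among 12427 fitted. Neither test shows how well changes near 1.5-fold are called. Computations ran in Python 3.11.15 (scipy 1.17.1, pandas 2.3.3, numpy 2.4.6) and figures in matplotlib 3.10.9. The ChIP-Seq data were not used here.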

Additional observations from a re-analysis of the deposited data

Results flagged for a closer look

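A few members differed in opposite directions under the same contrast in ESCs and EBs, or in 2 lines, by at least 0.25 on the log2 scale each way. With 1 library per condition none of these differences between contrasts was tested. Trp53 was at -0.49 in AP3 against WT at D0 and at 0.25 at D3, and at -0.46 and 0.39 in AP3 against the library labelled KD. Its D3 to D0 change was -0.34 in the library labelled KD and 0.51 in AP3. The Trp53 contrasts with AP3 share the AP3 libraries. Trp53inp1 was at -0.37 in the labelled KD against WT at D0 and at 0.34 at D3, and at 0.36 and -0.39 in AP3 against the labelled KD. Perp was at -0.35 in the labelled KD against WT at D0 and at 0.52 at D3, and at 1.06 and -0.25 in AP3 against the labelled KD. The Trp53inp1 and Perp values share the libraries labelled KD.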

How the results depend on the processing

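Of pseudocount, filter, centring, summed entries and fold threshold in the 1.5-fold counts, only the fold threshold changed counts of members beyond 1.5 times. At 2-fold, 0 genes passed in AP3 against WT at D0 (1 at 1.5-fold) and 1 in AP3 against the labelled KD at D0 (3 at 1.5-fold, 2 when centred on the median ratio), and 2, 1 and 2 genes fell at D3 in WT, the labelled KD and AP3 (4, 3 and 5 at 1.5-fold). In all, 49 of 54 counts stayed within 1.5 times, 404 of 405 gene values did not move beyond their counting interval, 45 of 45 medians stayed within a typical counting interval, and 0 of the values past 1.5-fold changed sign. Centring changed the sign of 4 values near 0, Ccng1 in the labelled KD against WT at D0 (-0.03 to 0.00) and, at D3 against D0 in the labelled KD, Ccng1 (0.04 to -0.01), Bax (0.03 to -0.02) and Trp53inp1 (0.04 to -0.01). The value that moved beyond its counting interval was Perp at D3 in AP3, -2.33 with pseudocount 1 against -2.59. Leaving out each line in turn, an alternative chosen after seeing the data, gave 3 to 4 members lower in every line and 4 to 7 with D3 levels all below D0, the 7 without the labelled KD. In the limma fit of D3 against D0, 4 members passed with the line as a block, without the block and with pseudocounts of 0.1 and 0.001, the same 4 genes each time. With no filter on low values 0 passed (5 at unadjusted p under 0.05, smallest adjusted p 0.147, 0 of 21639 entries called), and the cause was not tested. Leaving out a line gave 2 to 5 members, 2 without WT (Mdm2 at adjusted p = 0.0567 and Phlda3 at 0.154), 5 without the labelled KD (Trp53inp1 added at 0.0340) and 4 without AP3, while 417 of 12533, 878 of 12540 and 1882 of 12487 genes were called in all. These limma fits were chosen after seeing the data. Counting intervals (half-widths of 0.043 to 0.35 on the log2 scale) were widest for Perp and do not cover differences between cultures.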
